A study of Mus musculus with 8 samples.

Results

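Paired gene ends are places where neighbouring, non-overlapping protein-coding genes end within 1 kb of each other. On chromosomes 1 to 19, 1967 of the 18556 gaps between protein-coding genes (10.6%) were 0 to 1000 bp long in the RefSeq annotation of GRCm38.p6, the assembly behind mm10. The members were chosen by gene positions only, and no peak entered the choice. Each was examined in a window made of the gap and 500 bp on either side, so windows spanned 1000 to 1999 bp. They involved 3569 of 20661 protein-coding genes (17.3%), of which 377 sat at a pair on either end, and 10 neighbouring windows overlapped each other. They were compared with 27404 single gene ends, which had no other protein-coding gene within 5000 bp on their outer side. Other genes could lie closer on the inner side. Single ends had a window of 1250 bp, the median width of the pair windows.

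Peaks were taken from 6 ChIP-seq libraries of primary hippocampal neural progenitor cells (male, C57BL/6), 2 replicates for each of the proteins Mgea5, Panx2 and Polr1c. Mgea5 is the O-GlcNAc hydrolase (now named Oga), Panx2 is a pannexin channel protein, and Polr1c is a subunit of RNA polymerases I and III. The series was made to locate binding at the miR-9 genomic locus, which is not the subject here. The Mgea5 and Panx2 lists hold 145405 to 536877 broad peaks and the Polr1c lists 826 and 35927 narrow peaks, most of them weak. The study also held 2 input libraries, which have no peak list and were not analysed here. All groups share the same cells and culture, the labels name no treatment or genetic change, and they do not say whether replicates are separate cultures or mice, so differences between replicates may be technical. Cell type markers could not be checked, since a peak list measures no expression.

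A gene pair whose 2 starts face away from each other across a short gap is called divergent, and such a gap can act as a bidirectional promoter that serves both genes. Many divergent pairs in mammals hold genes of DNA repair, mitochondria, chaperones and other functions needed in every cell, and their promoters are often CpG islands without a TATA box. In a tandem pair the end of one gene lies beside the start of the next, and in a convergent pair both genes end at the gap, so it holds no start.

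The gaps were short. Their median was 250 bp, 1068 were at most 300 bp, 556 were at most 100 bp, and 9 pairs had a gap of 0 bp. Strand, and with it orientation, could be read for both genes of 1405 pairs: 553 were divergent, 435 tandem and 417 convergent, while 562 stayed without an orientation. Divergent pairs made up 39.4% of the oriented pairs, against 20.9% of the oriented gaps over 1 kb. Their gaps were also the shortest, with a median of 100 bp, against 449 bp for tandem and 381 bp for convergent pairs. Per 100 protein-coding genes, pairs were most frequent on chromosome 17 (13.9) and, apart from it, on chromosome 11 (12.5).

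A set of divergent gaps with strong peaks is shown here because the results below turn on them; Smarcd2/Tcam1, Tapbp/Rgl2, Nfkbiz/Nxpe3 and 0610012G03Rik/Ncbp2, also described below, are given by name and values alone. Sequences are from the RefSeq promoter table for GRCm38.p6, printed 5′ to 3′ on the plus strand, with the bases of the gap in capitals and up to 20 bases of the neighbouring genes in lower case. Where the table's promoter windows reach only part of a gap, the part shown is 250 of 254 bases for Atg13/Harbi1, 250 of 277 for Cep44/Fbxo8, 250 of 344 for Rad51ap1/D6Wsu163e and 250 of 279 for Pcid2/Cul4a. The first 5 are divergent gaps with a Polr1c peak in both replicates:
Atg13/Harbi1, chr2:91710602-91710871: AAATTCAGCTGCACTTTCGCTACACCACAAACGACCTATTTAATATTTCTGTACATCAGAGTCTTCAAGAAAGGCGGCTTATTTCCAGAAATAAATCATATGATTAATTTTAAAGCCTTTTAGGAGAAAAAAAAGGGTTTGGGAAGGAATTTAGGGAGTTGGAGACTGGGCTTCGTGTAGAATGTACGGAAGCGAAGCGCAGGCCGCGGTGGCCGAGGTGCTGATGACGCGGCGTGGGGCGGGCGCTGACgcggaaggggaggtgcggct
Cep44/Fbxo8, chr8:56550904-56551173: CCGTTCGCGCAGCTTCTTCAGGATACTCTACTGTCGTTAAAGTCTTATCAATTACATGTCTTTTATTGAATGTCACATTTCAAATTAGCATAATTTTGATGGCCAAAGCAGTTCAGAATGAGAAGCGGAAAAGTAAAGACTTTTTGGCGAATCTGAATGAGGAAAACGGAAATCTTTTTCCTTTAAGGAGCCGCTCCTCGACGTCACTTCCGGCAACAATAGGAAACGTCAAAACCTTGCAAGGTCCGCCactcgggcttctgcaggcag
Rad51ap1/D6Wsu163e, chr6:126939716-126939985: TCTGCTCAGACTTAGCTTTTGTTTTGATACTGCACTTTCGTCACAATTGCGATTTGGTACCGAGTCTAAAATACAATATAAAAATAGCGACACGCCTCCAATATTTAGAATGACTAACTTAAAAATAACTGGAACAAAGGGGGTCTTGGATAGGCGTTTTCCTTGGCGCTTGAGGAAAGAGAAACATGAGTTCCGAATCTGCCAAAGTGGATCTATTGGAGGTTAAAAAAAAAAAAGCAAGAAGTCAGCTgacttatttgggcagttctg
Timm9/2700049A03Rik, chr12:71136689-71136867: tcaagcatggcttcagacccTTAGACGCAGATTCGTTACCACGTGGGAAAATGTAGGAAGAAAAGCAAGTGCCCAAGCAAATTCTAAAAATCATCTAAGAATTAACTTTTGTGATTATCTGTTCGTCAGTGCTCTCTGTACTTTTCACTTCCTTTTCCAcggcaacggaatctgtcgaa
Lnx2/Polr1d, chr5:147076553-147076734: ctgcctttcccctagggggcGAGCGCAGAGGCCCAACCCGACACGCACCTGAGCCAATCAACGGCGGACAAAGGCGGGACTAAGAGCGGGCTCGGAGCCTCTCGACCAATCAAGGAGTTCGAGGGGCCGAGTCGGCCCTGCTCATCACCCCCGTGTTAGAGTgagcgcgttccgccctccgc
The next 5 are divergent gaps where Mgea5 reached a q of at most 0.01 in both replicates:
Supt7l/Slc4a1ap, chr5:31526743-31526800: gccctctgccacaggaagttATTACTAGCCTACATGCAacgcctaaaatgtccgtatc
Pcid2/Cul4a, chr8:13105324-13105593: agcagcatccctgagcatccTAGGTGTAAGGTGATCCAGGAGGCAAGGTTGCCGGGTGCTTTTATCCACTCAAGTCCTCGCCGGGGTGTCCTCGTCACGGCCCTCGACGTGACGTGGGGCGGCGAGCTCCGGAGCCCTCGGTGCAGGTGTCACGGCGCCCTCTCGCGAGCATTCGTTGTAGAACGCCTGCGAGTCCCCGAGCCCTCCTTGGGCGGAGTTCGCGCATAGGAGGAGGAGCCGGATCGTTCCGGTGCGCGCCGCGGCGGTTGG
Rpl9/Lias, chr5:65391412-65391516: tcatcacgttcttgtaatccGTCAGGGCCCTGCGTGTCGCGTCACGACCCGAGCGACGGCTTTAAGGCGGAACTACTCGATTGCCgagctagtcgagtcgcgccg
Eif2b1/Gtf2h3, chr5:124579112-124579167: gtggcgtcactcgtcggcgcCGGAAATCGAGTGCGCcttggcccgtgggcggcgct
1810024B03Rik/Snrnp200, chr2:127208261-127208405: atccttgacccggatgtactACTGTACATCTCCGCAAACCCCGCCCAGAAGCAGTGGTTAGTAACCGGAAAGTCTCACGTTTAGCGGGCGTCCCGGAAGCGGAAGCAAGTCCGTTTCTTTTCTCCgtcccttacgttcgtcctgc
The last pair of gaps, also divergent, reached that q for Panx2 in replicate 2:
Idh1/Pikfyve, chr1:65186460-65186659: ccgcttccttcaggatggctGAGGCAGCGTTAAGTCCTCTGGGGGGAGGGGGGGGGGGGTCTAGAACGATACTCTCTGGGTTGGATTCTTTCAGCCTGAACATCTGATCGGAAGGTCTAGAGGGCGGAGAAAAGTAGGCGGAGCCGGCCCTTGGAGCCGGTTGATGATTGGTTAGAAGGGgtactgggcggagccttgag
Atp6v1a/Naa50, chr16:44139683-44139810: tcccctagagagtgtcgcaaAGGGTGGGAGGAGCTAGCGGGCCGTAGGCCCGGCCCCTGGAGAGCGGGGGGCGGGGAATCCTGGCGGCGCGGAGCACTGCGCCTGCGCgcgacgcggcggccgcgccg

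The 5 Polr1c gaps differed in base composition. GC made up 46.8% of the bases shown at Atg13/Harbi1, 41.6% at Cep44/Fbxo8, 38.4% at Rad51ap1/D6Wsu163e, 37.4% at Timm9/2700049A03Rik and 64.1% at Lnx2/Polr1d. The Mgea5 gaps had 38.9% at Supt7l/Slc4a1ap, 67.2% at Pcid2/Cul4a, 64.6% at Rpl9/Lias, 62.5% at Eif2b1/Gtf2h3 and 55.2% at 1810024B03Rik/Snrnp200. Of the gaps shown, that at Cep44/Fbxo8 among the Polr1c gaps and that at 1810024B03Rik/Snrnp200 among the Mgea5 gaps hold the letters CCGGAAG on either strand, an ETS-type motif, and that at Rad51ap1/D6Wsu163e holds a TATA box (TATAAA).

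The first comparison asked whether paired ends carried peaks more often than single ends of the same list. In 5 of the 6 lists they did, by 0.202 to 21.9 percentage points, and in the list of Panx2 replicate 1 they did not. For Mgea5, peaks touched 1453 pairs in replicate 1 (73.9%, against 53.2% of single ends) and 1020 pairs in replicate 2 (51.9%, against 39.5%). For Panx2 they touched 173 pairs in replicate 1 (8.80%, against 10.4%) and 1515 in replicate 2 (77.0%, against 55.1%). For Polr1c they touched 9 pairs in replicate 1 (0.458%, against 0.255%) and 193 in replicate 2 (9.81%, against 7.02%).

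Over the 6 lists, the mean difference between paired and single ends was 9.39 ± 10.4 percentage points (SD over lists, n = 6), which did not pass the test (exact two-sided sign-flip permutation test, p = 0.0938, adjusted p = 0.156 over 5 tests). The share of bases covered by peaks gave the same order. Peaks covered 34.6% and 18.3% of the bases of the pair windows for Mgea5, against 22.4% and 12.9% of those at single ends. For Panx2 the share was 3.25% and 38.9% at pairs, against 4.06% and 25.5% at single ends, and for Polr1c it was 0.153% and 1.80%, against 0.0762% and 1.28%. The mean difference in covered bases was 5.13 ± 6.32 percentage points (SD, n = 6; exact permutation test, p = 0.156, adjusted p = 0.195). Peak names place Panx2 replicate 1 and Polr1c replicate 1 in a calling run of their own. In that run the mean difference in share with a peak was -0.694 percentage points, and over the other 4 lists it was 14.4, with every list above 0. The part of the calling run in this was not tested.

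The neighbourhoods of the pairs differed between lists. Windows of the same width 10 kb to either side of a pair had a Mgea5 peak in 59.6% and 47.9% of cases and a Panx2 peak of replicate 2 in 61.9%, more than the single ends themselves (53.2%, 39.5% and 55.1%). The Polr1c flanks, at 0.203% and 5.16%, lay below single ends (0.255% and 7.02%). They lay above the flanks of single ends, which had 0.0912% and 2.74%. For Mgea5 the flanks of single ends had 44.8% and 39.1%, and for Panx2 replicate 2 they had 42.9%, also less than the flanks of pairs. In Panx2 replicate 1 the flanks of pairs had 10.4%, against 11.8% of the flanks of single ends. A rise over the flanks was not particular to pairs. Single ends exceeded their own flanks in every list but Panx2 replicate 1, where the difference was -1.42 percentage points. Their excess was 8.38 in Mgea5 replicate 1, 0.412 in Mgea5 replicate 2 and 12.3 in Panx2 replicate 2. The Polr1c lists gave 0.164 in replicate 1 and 4.28 in replicate 2. Pairs stood above their own flanks by 14.2 and 3.94 percentage points for Mgea5, by 15.1 for Panx2 replicate 2, and by 0.254 and 4.65 for Polr1c. For Panx2 replicate 1 they stood 1.63 percentage points below them, with 8.80% of pairs against 10.4% of flanks. The mean over lists was 6.09 ± 7.04 percentage points (SD, n = 6; exact permutation test, p = 0.0938, adjusted p = 0.156), and it was -0.686 in the run with the lists of Panx2 and Polr1c replicate 1 and 9.48 in the other.

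**Figure D1:**
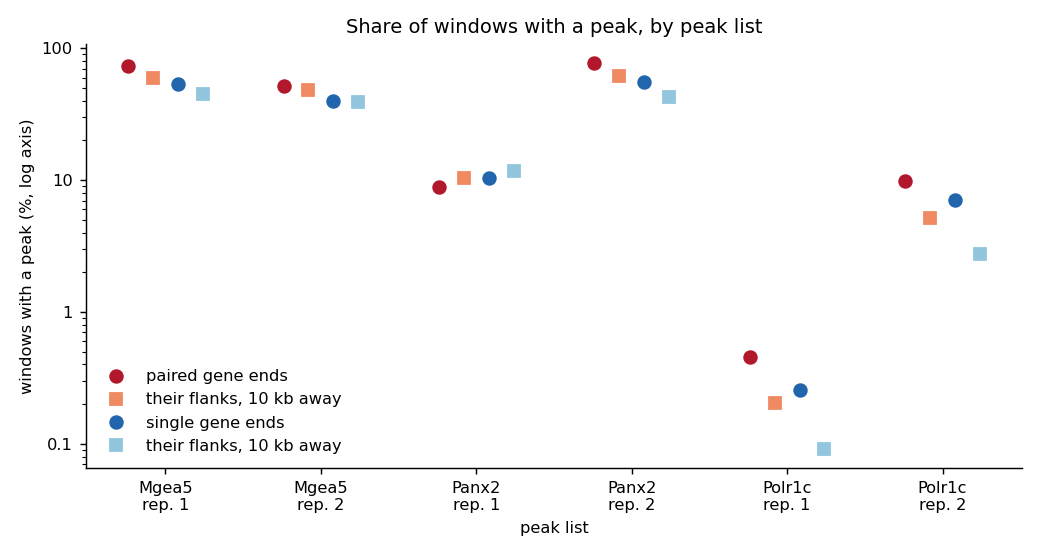
Share of windows with a peak (percent, log axis) in each of the 6 peak lists, for paired gene ends, windows 10 kb from them, single gene ends and windows 10 kb from those. Each point is a share over all windows of a kind in 1 list; paired ends stand highest in every list but that of Panx2 replicate 1, where they are lowest (8.80%).

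The shares differed by the length of the gap, as measured in equal windows of 1000 bp centred on each gene end. In Mgea5 replicate 1, a peak lay at 72.5% of ends beside gaps of at most 100 bp, at 62.0% beside gaps of over 300 and up to 1000 bp and at 55.0% beside gaps of 1 to 2 kb. In Panx2 replicate 2 the shares at the same gap lengths were 76.3%, 65.3% and 62.0%, and in Mgea5 replicate 2 they were 49%, 44.7% and 41.9%. Beside gaps of 5 to 20 kb they were lower still, at 50.8%, 53.4% and 36.9% in the same order of lists. In Panx2 replicate 2 the ends where a gene stops carried a peak in 72.5% of cases beside gaps of at most 100 bp and in 33.1% beside gaps over 100 kb, while the ends where a gene starts had 78.1% and 69.8%. Beside gaps of at most 100 bp, the window of a stop also holds the end of the next gene, which at tandem pairs is a start. The windows at either end of such a gap overlap, so this is not a comparison of stops alone. Panx2 replicate 1 ran the other way, with 7.64% of ends beside gaps of at most 100 bp and 9.72% beside gaps over 100 kb. Polr1c replicate 2 had 9.53% at the shortest gaps, 5.66% at 1 to 2 kb and 8.46% beyond 100 kb.

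**Figure D2:**
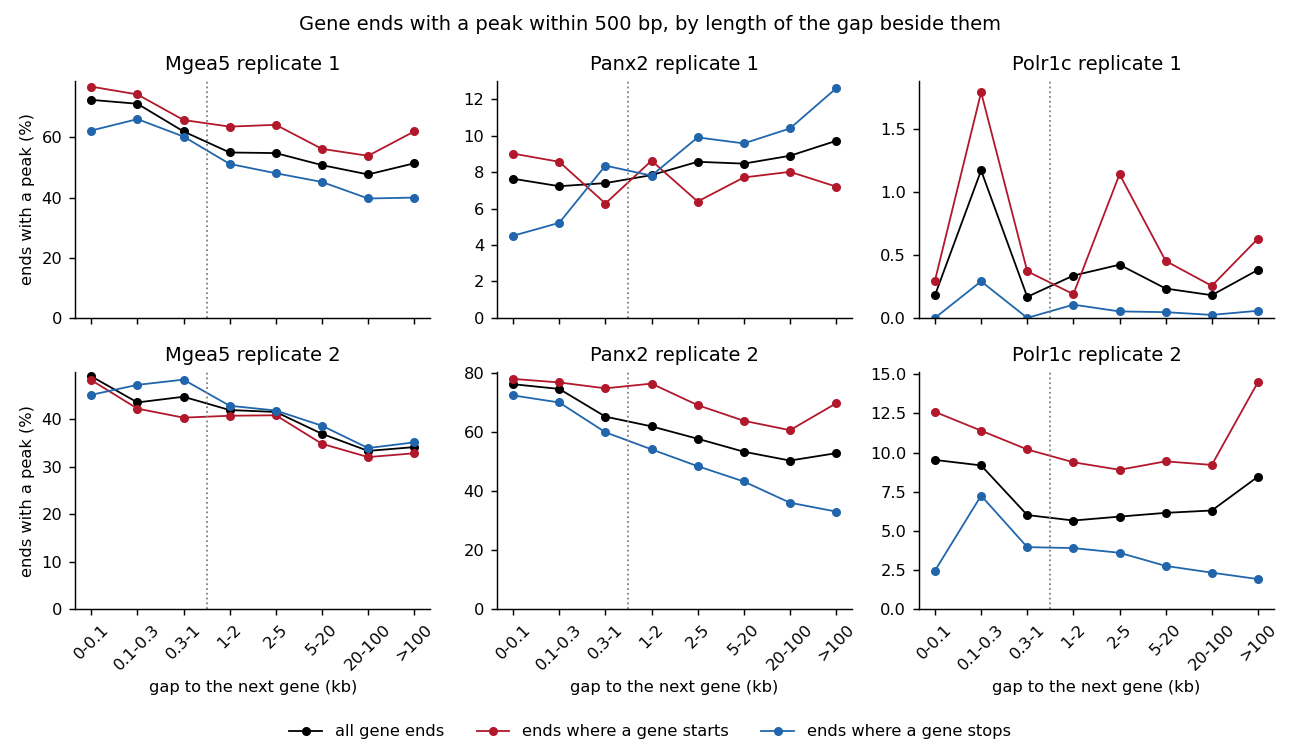
Share of gene ends with a peak within 500 bp (percent) by the length of the gap to the next protein-coding gene (kb), for all ends, ends where a gene starts and ends where a gene stops, in each list. The dotted line marks the limit of 1 kb; in Mgea5 replicate 1 and Panx2 replicate 2 the share of all ends is lower to the right of that line than to its left.

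Orientation was compared next, since it decides whether a gap holds gene starts. In Mgea5 replicate 1, 78.8% of divergent, 74.5% of tandem and 67.9% of convergent pairs had a peak, against 59.4% of single starts and 46.3% of single stops. In Mgea5 replicate 2 the order was the reverse, with 46.3% of divergent, 53.6% of tandem and 57.1% of convergent pairs, against 37.8% of single starts and 40.7% of single stops. In Panx2 replicate 2 the shares were 79.9%, 82.8% and 66.9% in the same order, against 65.6% of single starts and 42.5% of single stops. Panx2 replicate 1 had 10.3%, 6.67% and 8.87%, against 9.34% of single starts and 11.9% of single stops.

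Polr1c had its highest shares at divergent pairs. In replicate 1, 6 of 553 divergent pairs (1.08%) and 1 of 435 tandem pairs (0.230%) had a peak, none of the 417 convergent pairs did, and the share at single starts was 0.421%, against 0.0482% of single stops. In replicate 2, 14.6% of divergent, 10.3% of tandem and 5.04% of convergent pairs had a peak, against 10.7% of single starts and 2.77% of single stops.

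Divergent pairs exceeded single starts in 6 of 6 lists, by 0.664 to 19.5 percentage points, with a mean of 7.98 ± 7.63 (SD, n = 6). The exact permutation p was 0.0312, the smallest that 6 lists allow, and the adjusted p over the 5 tests was 0.156, so the difference did not pass. Divergent pairs exceeded tandem and convergent pairs in 5 of 6 lists, by a mean of 2.33 ± 6.09 percentage points (exact permutation test, p = 0.406, adjusted p = 0.406), and Mgea5 replicate 2 stood at -8.99. Divergent windows are narrower, and by share of bases covered, a measure added after the data were seen, divergent pairs were above the others in 6 of 6 lists, by a mean of 3.95 percentage points (exact permutation test, unadjusted p = 0.0312). Within the run of Panx2 and Polr1c replicate 1, divergent pairs exceeded single starts by a mean of 0.814 percentage points, and within the other run by 11.6.

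Around the middle of divergent gaps, peak cover was concentrated within about 1 kb. In Mgea5 replicate 1, 42.5% of divergent gaps were covered at their middle, against a mean of 19.3% at 4 to 5 kb from it, and single starts had 30.1% and 15.8%. Mgea5 replicate 2 covered 22.8% at the middle and 14.5% far from it at divergent gaps, where single starts had 12.6% and 11.9%. Panx2 replicate 2 dipped at the middle of divergent gaps, with 42.1% there and 51.0% at 400 bp to the right. The dip was not particular to them: tandem gaps had 38.9% at the middle and 51.3% at 500 bp. Single starts had 36.6% at the start and 47.1% at 300 bp. Far from these places, Panx2 replicate 2 covered 20.1% at divergent gaps and 15.6% at single starts. Panx2 replicate 1 covered 2.89% of the divergent middles and 5.26% of positions 4 to 5 kb away, so its peaks were sparse where those of the other lists were dense. That too was not particular to divergent gaps: tandem gaps had 2.53% and 3.96%, and single starts 3.25% and 4.94%. Polr1c replicate 2 covered 3.98% of divergent middles, against 0.312% far away, and single starts had 2.48% and 0.3%. At convergent gaps the difference between the middle and its surroundings varied by list. Mgea5 replicate 1 had 26.9% at the middle and 26.2% far away, and Polr1c replicate 2 had 0.480% and 0.676%. Mgea5 replicate 2 stood higher at the middle, with 18.7% against 15.3%, and Panx2 replicate 2 lower, with 25.4% against 30.1%.

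**Figure D3:**
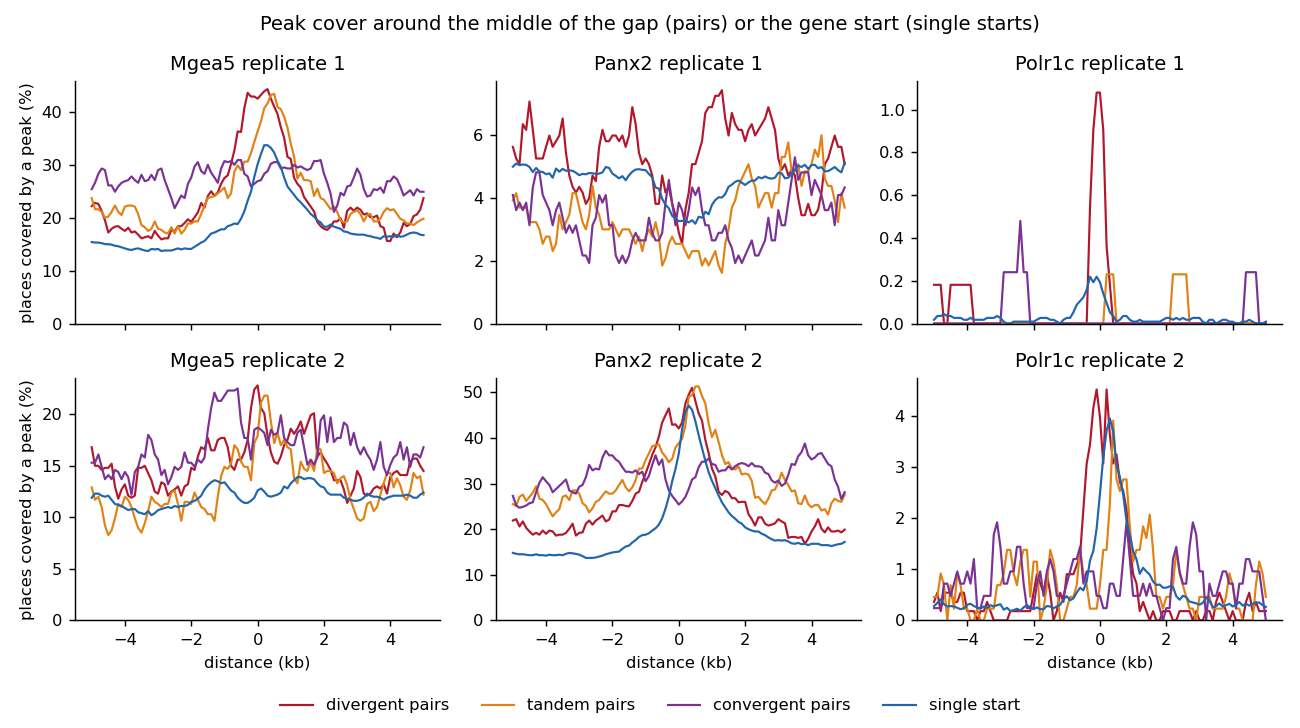
Share of places covered by a peak (percent) by distance (kb) from the middle of the gap for divergent, tandem and convergent pairs and from the gene start for single starts, in each list; for tandem pairs and single starts, positive distances run into the gene that starts. Cover stands high near divergent middles in the Mgea5 and Polr1c lists and low there in Panx2 replicate 1 (2.89% at the middle), as it does at single starts in that list (3.25%).

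Peak width set how precisely a gap could be read. The strongest peak at a pair had a median width of 914 bp and 552 bp in the Mgea5 lists and 778 bp and 1089 bp in the Panx2 lists, more than most gaps. At divergent pairs a Mgea5 peak spanned both gene starts in 50% of cases in replicate 1 and 41.8% in replicate 2. The Polr1c peaks were narrower, with medians of 435 bp and 236 bp. Of the 6 divergent pairs with a Polr1c peak in replicate 1, the peak touched the gap at all 6 and its summit lay in the gap at 3. The median distance of the summit from the middle of the gap was 91.8 bp.

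Strength was read from the fold, the authors' ratio of ChIP to background pileup for a peak, of which the highest in the window is given; folds of different proteins are not compared. All 9 pairs with a Polr1c peak in replicate 1 also had a peak in replicate 2, against 9.40% of the other pairs. Among single ends, 0.208% had Polr1c peaks in both replicates. Over the pairs with a peak, the median of the highest fold was 6.36 in replicate 1 and 2.75 in replicate 2, against 5.29 and 2.78 over single ends. At a q of at most 0.01, 7 pairs were listed in replicate 1 (0.356%, against 0.15% of single ends) and 32 in replicate 2 (1.63%, against 0.941%). Of these 32 pairs, 21 were divergent, 4 tandem and 7 without orientation, and none was convergent. Over all pairs, 28.1% were divergent, 22.1% tandem, 28.6% without orientation and 21.2% convergent.

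Atg13/Harbi1 had the highest Polr1c fold of replicate 1, 14.7, with 11.8 in replicate 2. Atg13 is a subunit of the kinase complex that starts autophagy, and Harbi1 derives from a transposase. The peaks lay at chr2:91710410-91710887 in replicate 1 and chr2:91710223-91710930 in replicate 2. Their summits were 38 bp and 28 bp to the right of the middle of the gap. Cep44/Fbxo8, a centrosome gene beside an F-box gene, had folds of 11.7 and 10.6. The peaks covered chr8:56550618-56551129 and chr8:56550623-56551346, and the replicate 1 peak lay almost wholly within that of replicate 2. Rad51ap1/D6Wsu163e had folds of 9.72 and 8.71, and Rad51ap1 acts in homologous recombination.

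Smarcd2/Tcam1 had folds of 6.36 in replicate 1 and 15.1 in replicate 2, the highest of that list at a pair. Smarcd2 is a subunit of SWI/SNF chromatin remodellers, and its gap to Tcam1 is 21 bp long. Timm9/2700049A03Rik, with a chaperone of mitochondrial protein import, had 4.77 and 8.94. Lnx2/Polr1d had 5.18 and 3.52, and Polr1d is the subunit that pairs with Polr1c in RNA polymerases I and III. Nfkbiz/Nxpe3, whose gap of 998 bp is almost the longest allowed, had 8.27 and 6.85. The summits of its peaks lay at -476 bp and -494 bp from the middle (minus meaning towards Nfkbiz). Nfkbiz encodes a nuclear regulator of NF-κB.

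The other 2 of the 9 pairs had lower folds. Tapbp/Rgl2, a tandem pair with the gene of tapasin in MHC class I peptide loading, had Polr1c folds of 4.21 and 5.58. Slc39a6/Elp2, a zinc transporter gene beside an Elongator subunit gene, had 4.50 and 4.71. In replicate 1 the −log10 q was 0.612 at Tapbp/Rgl2 and 1.44 at Slc39a6/Elp2, so these stayed short of a q of 0.01, whereas in replicate 2 it was 18.9 and 11.4. No tRNA, snRNA, snoRNA, rRNA or miRNA gene lay in the window of any of the 9 pairs.

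At the 9 pairs of Polr1c replicate 1, a Mgea5 peak was listed at all 9 in replicate 1 and at 7 in replicate 2, and a Panx2 peak at 1 in replicate 1 and 8 in replicate 2. Over the other pairs the shares were 73.7% and 51.7% for Mgea5 and 8.78% and 77.0% for Panx2. Those companion peaks were weak, apart from Tapbp/Rgl2. At Atg13/Harbi1 the Mgea5 folds were 1.86 and 1.59 and the Panx2 fold of replicate 2 was 1.89, near the median fold of these lists.

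Replicate 2 alone added further Polr1c sites, named here after their values were seen. The highest were Bag1/Chmp5, a co-chaperone gene beside an ESCRT-III gene, with a fold of 8.29, and Atp6v1a/Naa50, a V-ATPase subunit gene beside an acetyltransferase gene, with 8.05. A peak with a fold of 4.86 lay at 6030458C11Rik/Drosha, where Drosha is the nuclease that cuts primary microRNA transcripts. The histone pair H2ac15/H2bc15 had 3.73. None of these had a peak in replicate 1, whose list was far shorter, at 826 peaks against 35927.

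**Figure D4:**
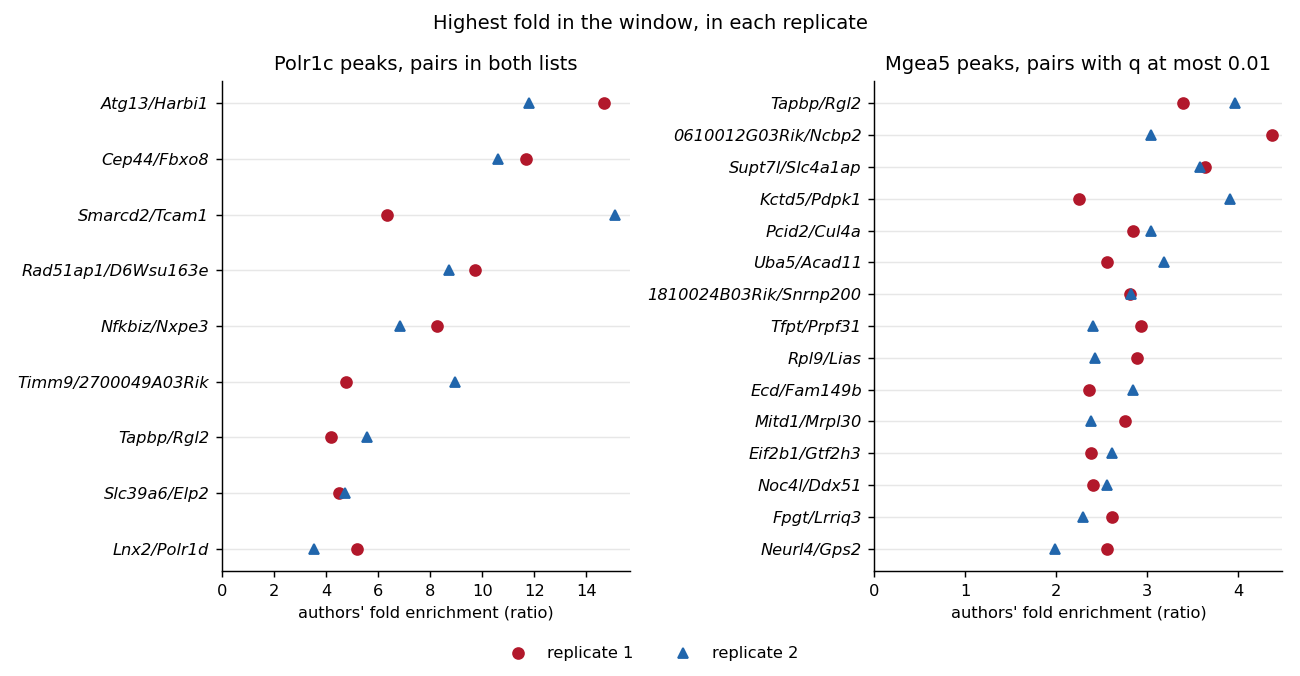
The authors' fold enrichment (ratio) of the highest peak in the window in replicates 1 and 2, for the 9 pairs with Polr1c peaks in both replicates (left) and 15 of the 16 pairs with a Mgea5 q of at most 0.01 in either replicate (right). Polr1c folds run from 3.52 to 15.1, and those of Mgea5 from 1.99 to 4.37.

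Mgea5 peaks were numerous at pairs but low. The median of the highest fold was 1.73 in replicate 1 and 1.68 in replicate 2 over the pairs with a peak, and 1.73 and 1.69 over single ends. The deposited −log10 q was 0 for 79.2% and 84.7% of these pairs. A q of at most 0.01 was reached at 13 pairs in replicate 1 (0.661%, against 0.0985% of single ends) and 11 in replicate 2 (0.559%, against 0.113%), 16 pairs in all. Both replicates reached it at 8 of the 16.

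These 16 pairs had a median gap of 52 bp. Of them 9 were divergent, 3 tandem, none convergent and 4 without orientation. The shares over all pairs were 28.1%, 22.1%, 21.2% and 28.6% in that order. 0610012G03Rik/Ncbp2, with a cap-binding complex gene, had the highest fold of replicate 1, 4.37, and 3.04 in replicate 2. Tapbp/Rgl2 had 3.40 and 3.97, and Supt7l/Slc4a1ap, with a gene of the STAGA coactivator complex, had 3.64 and 3.58.

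Kctd5/Pdpk1 had folds of 2.25 and 3.91, and only replicate 2 reached that q. Pdpk1 is a kinase upstream of Akt. Pcid2/Cul4a, with a cullin ubiquitin ligase gene, had 2.84 and 3.04. Several of the others pair genes of RNA processing or translation: 1810024B03Rik/Snrnp200 (a spliceosome helicase gene) had 2.81 and 2.82, Tfpt/Prpf31 (a splicing factor gene) had 2.93 and 2.40, and Rpl9/Lias (a ribosomal protein gene beside the lipoic acid synthetase gene) had 2.89 and 2.43. Eif2b1/Gtf2h3, a translation initiation gene beside a TFIIH gene, had 2.38 and 2.61. Such pairs were described after the q was applied, and no enrichment of a function was tested. Tapbp/Rgl2 was the only pair that reached a q of at most 0.01 for both Mgea5 and Polr1c replicate 2.

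Panx2 gave no pair past a q of 0.01 in replicate 1 (0 of 1967, against 0% of single ends) and 3 in replicate 2 (0.153%, against 0.106%). Those were Idh1/Pikfyve, the gene of cytosolic isocitrate dehydrogenase beside that of a phosphoinositide kinase, with a fold of 3.38, Atp6v1a/Naa50, with 3.46, and Gm40364/Gm40363, with 2.39. At Atp6v1a/Naa50 the Panx2 peak was centred 364 bp to the right of the middle. The Polr1c peak of replicate 2 had its summit 108 bp to the left. Among pairs with a peak in both Panx2 replicates, the geometric mean of the folds was highest at Thap2/Zfc3h1 (2.11 and 3.34), Gemin4/Dbil5 (1.78 and 3.16), where Gemin4 belongs to the SMN complex, and Gm30191/Grrp1 (1.95 and 2.81). Next were Ccni/2010109A12Rik (1.99 and 2.59), Septin1/Zfp553 (1.83 and 2.78) and Prepl/Camkmt (1.76 and 2.86). All 173 pairs with a peak in replicate 1 had a deposited −log10 q of 0 there.

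Agreement between replicates differed by protein. Mgea5 peaks of both replicates were at 809 pairs (41.1%, against 25.4% of single ends). Of the pairs with a Mgea5 peak in replicate 1, 55.7% had another in replicate 2, against 41.1% of the pairs with none in replicate 1. Panx2 peaks of both replicates were at 125 pairs (6.35%, against 5.29% of single ends), and here the share in replicate 2 was 72.3% with a peak in replicate 1, against 77.5% without. For Polr1c these shares were 100% and 9.40%. If replicates were unrelated, the product of their shares would give the share of windows with peaks in both. For Mgea5 that product was 38.3% at pairs and 21% at single ends. For Panx2 it was 6.77% and 5.73%, and for Polr1c 0.0449% and 0.0179%. Across the pairs with a peak in both replicates, which are not independent replicates and share their libraries, Spearman's rho between the folds was 0.289 for Mgea5 over 809 pairs, 0.0408 for Panx2 over 125 and 0.60 for Polr1c over 9.

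No pair had a peak in all 6 lists, against 0.0328% of single ends, and 16 pairs (0.813%, against 0.285%) were in 5 lists. No list had a peak at 90 pairs (4.58%), against 18.8% of single ends. The largest class was 746 pairs in 2 lists (37.9%, against 30.3%). The 16 pairs in 5 lists included Atg13/Harbi1, Cep44/Fbxo8, Rad51ap1/D6Wsu163e, Nfkbiz/Nxpe3, Timm9/2700049A03Rik, Tapbp/Rgl2, Slc39a6/Elp2, Ndufaf3/Dalrd3 and H2ac15/H2bc15.

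The share of genes that sit at a pair varied widely between gene families. Of the replication-dependent histone genes, 43 of 67 (64.2%) were at a pair, against 17.3% of all protein-coding genes. Genes of oxidative phosphorylation followed with 46 of 93 (49.5%), DNA repair with 35 of 81 (43.2%), mitochondrial ribosomal proteins with 30 of 78 (38.5%), chaperones with 13 of 36 (36.1%) and tRNA synthetases with 13 of 37 (35.1%). Between these and the overall share lay proteasome genes (15 of 47), Atg genes (6 of 20), ribosomal protein genes (21 of 79), Tmem genes (61 of 231) and DNA replication genes (10 of 44). Solute carrier genes (57 of 333, 17.1%) were near it and Zfp zinc finger genes (41 of 388, 10.6%) were below it. At the low end were olfactory receptor genes, with 7 of 1104 (0.634%), and genes of the neural progenitor state, with 1 of 28 (Fam187a/Gfap, with the gene of the glial filament protein).

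Mgea5 peaks were listed at nearly every histone pair. Of the 25 histone pairs, 24 had a peak in replicate 1 (96.0%, against 73.9% of all pairs) and 24 in replicate 2 (96.0%, against 51.9%). For Panx2 the counts were 5 and 22 (20% and 88.0%, against 8.80% and 77.0%), and for Polr1c 0 and 6 (0% and 24%, against 0.458% and 9.81%). The folds were not high: H2ac15/H2bc15 had Mgea5 folds of 1.83 and 1.71, H3c15/H2ac19 had 1.86 and 1.76, and H2ac18/H3c14 had 1.86 and 1.63. Neighbouring histone pairs share genes and stretches of the same clusters, so they are not independent.

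The other families are set beside the 73.9% and 51.9% of all pairs with a Mgea5 peak, and none of these differences was tested. The 47 oxidative phosphorylation pairs had Mgea5 peaks at 83.0% and 51.1%, the 39 DNA repair pairs at 71.8% and 46.2%, and the 34 pairs of mitochondrial ribosomal proteins at 76.5% and 52.9%. The 28 ribosomal protein pairs had them at 67.9% and 53.6%, the 19 proteasome pairs at 78.9% and 57.9%, and the 16 chaperone pairs at 87.5% and 62.5%. All 15 tRNA synthetase pairs had a Mgea5 peak in replicate 1 and 4 of them in replicate 2. All 7 pairs of autophagy (Atg) genes had one in replicate 1 and 3 in replicate 2, and Thap4/Atg4b, with the gene of a protease that matures Atg8 proteins, had folds of 2.93 and 1.87. In the DNA repair list, Recql/Golt1b, with a DNA helicase gene, had a Polr1c fold of 3.34 in replicate 2. All 5 olfactory receptor pairs had a Mgea5 peak in replicate 1 and none in replicate 2.

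A further list held textbook pairs with a shared promoter, 7 of which met the limit of 1 kb. Of these 7 pairs, 4 had a Mgea5 peak in replicate 1 (57.1%, against 73.9% of all pairs) and none in replicate 2 (0%, against 51.9%). A Panx2 peak was at 1 in replicate 1 (14.3%, against 8.80%) and at 4 in replicate 2 (57.1%, against 77.0%), and none had a peak in either Polr1c list (against 0.458% and 9.81%). Mrps12/Sars2, a mitochondrial ribosomal protein gene beside the mitochondrial seryl-tRNA synthetase gene, had folds of 1.53 for Mgea5 and 1.91 for Panx2, both in replicate 1. Atm/Npat, a DNA damage kinase gene beside a regulator of histone transcription, had a Panx2 fold of 1.93 in replicate 2 alone. Mcm4/Prkdc had 1.69 for Mgea5 replicate 1 and 1.84 for Panx2 replicate 2, Gart/Son had 1.70 and 1.72, and Psmb9/Tap1 had 1.77 and 2.0. Wrap53/Trp53 and Brca1/Nbr1 had no peak in any list.

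The promoter sequences of paired and single starts were compared without regard to peaks. The RefSeq promoter table, with 300 bases per gene (250 before and 50 after its start), matched the right-hand gene of 467 divergent pairs and 8856 single starts. The median GC content was 62.7% at divergent pairs and 54.0% at single starts. The observed over expected CpG ratio was 0.863 at divergent pairs, against 0.462 at single starts, and it was at least 0.6 in 89.9% and 41.8% of them.

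Motifs were searched as exact letters on both strands, and none of them contains another. The ETS-type CCGGAAG was in 30.6% of divergent windows, 9.41% of single starts and 12.4% of all promoters of the table. The TATA box TATAAA was in 5.78% of divergent windows, 17.8% of single starts and 15.2% of all promoters. The YY1 motif AAGATGGCG was in 6.85%, 1.5% and 1.97%, the GC box GGGCGG in 69.4%, 41.7% and 45.6%, and the CCAAT box in 44.8%, 40.3% and 40.7%. For NRF1 (GCGCATGCG) the shares were 4.93%, 2.21% and 2.71%, for CRE (TGACGTCA) 4.28%, 2.35% and 2.55%, and for the E-box (CACGTG) 10.9%, 7.37% and 8.01%. The longer Znf143 motif was in 1.07%, 0.407% and 0.489%, and the B box of RNA polymerase III genes in 0%, 0.0565% and 0.0473%. A match is a description of letters and not a bound site.

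**Figure D5:**
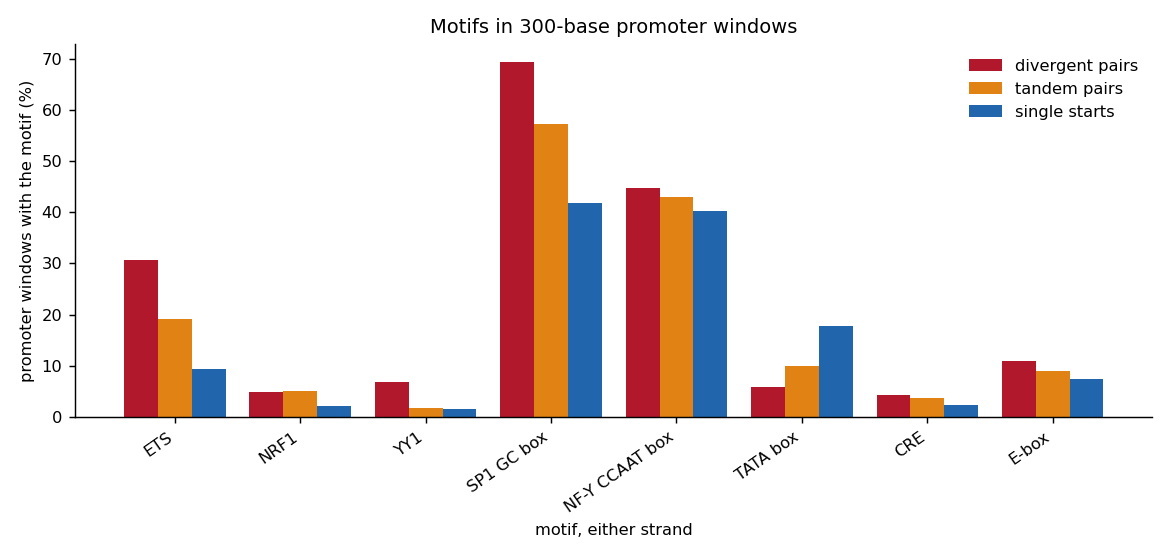
Share of promoter windows of 300 bases that hold each motif on either strand (percent), for the right-hand gene of divergent pairs, the gene that starts at a tandem gap, and single starts. ETS letters are in 30.6% of divergent and 9.41% of single windows, and TATA letters in 5.78% and 17.8%.

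GC content moved with the difference between divergent pairs and single starts. Promoters were split into 3 classes of GC content at 50.3% and 60.8%, a split made after the data were seen. In the low class, 77.5% of the 40 divergent pairs had a Mgea5 peak in replicate 1, against 35.4% of single starts. In the middle class the shares were 75.6% at divergent pairs and 67.4% at single starts, and in the high class 81.5% and 81.0%. Mgea5 replicate 2 stood higher at divergent pairs in each class, with 62.5%, against 28.0%, in the low class, 45.5%, against 42.3%, in the middle class and 47.2%, against 42.4%, in the high class. For Panx2 replicate 2 the low class had 70.0%, against 33.2%, the middle class 67.3%, against 75.7%, and the high class 89.7%, against 94.1%. Polr1c replicate 2 had 20%, against 2.74%, in the low class, 9.62%, against 9.36%, in the middle class and 16.6%, against 23.7%, in the high class. Means over classes gave each class equal weight, whatever its number of pairs. Over the middle and high classes, the mean difference over the 6 lists was -0.138 percentage points (exact permutation test, p = 0.969). Over all 3 classes it was 8.07 (exact permutation test, unadjusted p = 0.0312). The low class holds 40 of 467 matched pairs and the high class 271. The value of 8.07 thus leans on the low class and is not a mean over pairs. The part of GC content in the difference was not tested further.

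Divergent windows with the ETS letters had more Mgea5 peaks than those without them, a comparison chosen after the data were seen. In replicate 1 a peak was at 125 of 143 with the letters (87.4%) and at 245 of 324 without them (75.6%). In replicate 2 the shares were 59.4% with the letters and 42.9% without. Among single starts they were 77.9% with the letters and 56.7% without in replicate 1, and 49.3% and 35.3% in replicate 2, so the direction was not particular to pairs. At divergent pairs Panx2 replicate 2 had 86.0% with the letters and 78.1% without, and Polr1c replicate 2 had 16.8% and 13.6%. Panx2 replicate 1 had 9.09% with the letters and 9.57% without, and Polr1c replicate 1 had 0.699% and 0.926%. Within each of the GC classes above, Mgea5 shares at divergent pairs were higher with the letters in both replicates. In the low class this rests on 6 windows with the letters, 5 with a peak in replicate 1 and 4 in replicate 2. Of the 34 windows there without the letters, 26 and 21 had a peak. The middle class had 89.1% with and 70% without in replicate 1, and 56.5% and 40.9% in replicate 2. The high class had 86.8% with and 78.9% without in replicate 1, and 60.4% and 40.6% in replicate 2. Single starts were likewise higher with the letters in each class. Those of the low class had 65.2% with and 34.6% without in replicate 1, and 53.9% and 27.3% in replicate 2. Those of the middle class had 77.2% and 65.9% in replicate 1, and 49.7% and 41.1% in replicate 2. Those of the high class had 81.5% and 80.9% in replicate 1, and 47.9% and 41.5% in replicate 2. Panx2 replicate 2 had 89% and 90% at divergent pairs of the high class. Among divergent pairs with a Mgea5 q of at most 0.01 in either replicate, 3 of 9 held the letters in either promoter. Of all divergent pairs with a matched promoter, 177 of 539 (32.8%) did, so no excess was seen at these 9. None of these differences was tested.

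A few pairs need separate reading. On chromosome 14 beyond 45 Mb, where all lists are sparse, the 48 pairs had peaks in 37.5% and 27.1% of cases in the Mgea5 lists, in 0% and 52.1% in the Panx2 lists and in 0% and 4.17% in the Polr1c lists. Of all pair windows, 11 (0.559%) held a short non-coding gene, against 0.431% of single ends. At the limit of 1 kb, Gm30191/Grrp1 and Pcgf2/Psmb3 had the longest gaps inside it, 999 bp each, and peaks in 4 and 5 lists. A tRNA gene, n-TNgtt8, lies in the window of Pcgf2/Psmb3, where the Polr1c fold of replicate 2 was 3.63. In the first gaps outside the limit, Pigz/0610012G03Rik had no peak in any list, and Ankrd34a/Lix1l (1006 bp) had folds of 1.66 for Mgea5 replicate 1 and 1.68 for Panx2 replicate 2.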

How the data were processed

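ChIP-seq peak lists of Mgea5, Panx2 and Polr1c (2 libraries each) were analysed. Trim Galore, Bowtie2 2.3.5, MACS3 3.0.0a5 and mm10 are named in the submitters' processing notes. Which control and cut-offs the caller used, and the read depth, were not given in the sources used here. Deposited by the authors with every peak are a fold (a ratio of ChIP to background pileup) and −log10 p and −log10 q values, used to rank and filter peaks only within a list. The Mgea5 and Panx2 lists are broad and go down to a −log10 p of 1, the Polr1c lists are narrow and go down to 2, so a peak here may be weak.

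Members and lists were chosen with earlier results of these data known. Protein-coding genes came from the RefSeq table of GRCm38.p6, and a peak counted when it overlapped a window by at least 1 bp. Strand came from the RefSeq promoter table for 16456 of 20661 genes (79.6%), none on chromosome 18. Single ends had more than 5000 bp to the next protein-coding gene on their outer side. Shares were compared within each list, and the 6 differences were tested by an exact two-sided sign-flip permutation over lists (64 patterns, smallest p 0.03125) with Benjamini-Hochberg adjustment over 5 tests at 0.05. The lists may share input libraries, so they are not fully independent. Named pairs are the 6 of highest geometric mean fold per protein, the textbook pairs, up to 3 pairs per gene list and those at the distance limit. Others are said to be named after their values were seen. A pair under this rule is not reported here. Python 3.11.15, numpy 2.4.6 and pandas 2.3.3 were used, and the scripts were tested on simulated data.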

Additional observations from a re-analysis of the deposited data

How the results depend on the processing

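The main limits are weak peaks, unknown read depth and cut-offs, and 6 lists as the units of every test: with 5 or fewer lists an exact permutation p cannot go below 0.0625, so a call lost with fewer lists says nothing of stability. Orientation is known for 1405 of 1967 pairs. No paired analysis was possible because no groups of libraries are compared with each other: each difference is taken within a library, and the test over libraries is paired in that sense alone. Leaving out each library in turn gave 6.90 to 11.6 percentage points for paired minus single ends, 3.49 to 6.32 for covered bases, 4.29 to 7.64 against flanks, 1.27 to 4.59 for divergent minus other pairs and 5.68 to 9.44 for divergent pairs minus single starts, and with 1 replicate left per protein the pairs numbered 1020 to 1453 for Mgea5, 173 to 1515 for Panx2 and 9 to 193 for Polr1c. In the calling run with the lists of Panx2 and Polr1c replicate 1, paired minus single ends was -0.694, covered bases -0.367, the difference from flanks -0.686 and divergent pairs minus single starts 0.814, and in the other run the last was 11.6. The cause was not tested. Divergent pairs minus single starts missed the unadjusted threshold at a q of at most 0.01 (0.875), at a −log10 p of at least 2 (5.29) or 3 (2.75), with peak centres (5.93), with windows at least 50% covered (6.06) and with replicates averaged per protein (7.98), and turned to -0.138 within the middle and high GC classes. A list at 0, as at that q and at a −log10 p of at least 3, also leaves 0.0625 as the smallest p, and 3 averaged values leave 0.25, so these 3 misses say nothing of stability. Divergent minus other pairs had an unadjusted p of 0.0312 by covered bases (3.95, exact permutation test), the same unadjusted p that did not pass after adjustment for divergent pairs minus single starts. Pairs in both replicates numbered, for Mgea5, 8 at that q, 93 and 37 at those p limits, 465 by centre, 134 at that cover and 431 for gaps of at most 300 bp, for Panx2 0, 0, 0, 48, 12 and 62, and for Polr1c 0 at that cover. The log2 ratio of shares, the GC classes, the covered bases for divergent pairs, the subtraction of flanks on both sides and the removal of windows with short non-coding genes were chosen after seeing the data. Paired minus single ends, 9.39 in the report, was 3.83 and 1.51 at those p limits, 0.324 at that q, 5.07 at that cover and 2.08 with flanks subtracted on both sides, and the covered bases, 5.13 in the report, were 1.74, 0.561 and 0.157 at those p limits and that q. None of these passed, and the direction turned in the calling run named above alone.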

Other observations

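Across windows of tandem pairs, the promoter of the gene that starts at the gap lay between divergent pairs and single starts in composition. Its median GC content was 58.3% and its observed over expected CpG ratio 0.644, and 55.6% of these windows had a ratio of at least 0.6. The ETS letters were in 19.1% of them and the TATA letters in 9.90%.

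Among pairs with a Polr1c peak in replicate 2, 170 of 193 (88.1%) also had a Mgea5 peak in replicate 1 and 181 (93.8%) a Panx2 peak in replicate 2, against 72.3% and 75.2% of pairs without that peak. With Mgea5 replicate 2 the shares were 58.5% and 51.1%. These lists share a calling run. With Panx2 replicate 1, which lies in the other run, the shares were 7.25% and 8.96%. None of these differences was tested.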
